A study of Mus musculus with 12 samples.

Results

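The genes described here lie in a stretch of mouse chromosome 4 close to its distal end. They were chosen as the features of the raw count table whose gene start in GENCODE M21 falls on chr4:135900000-155000000 (mm10), with at least 10 counts in 3 or more samples. Cdc42, Eno1, Pgd, Mtor, Errfi1 and the ribosomal protein genes were left out, which removed 7 of 201 features, and 194 genes remained as members. The whole table holds 33219 features, of which 14352 reached the same minimum, and chromosome 4 outside the window held 697 of those. The window was drawn with the genotype differences of these samples known. The A159V over WT values below are therefore the values that chose the members, and they are given as a description without a test.

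MC38, a mouse colon adenocarcinoma line, was compared as WT cells and as cells with the RAC1 A159V mutation, a substitution in a small GTPase that was introduced into the endogenous gene by CRISPR-Cas9 knock-in and is homozygous by the study's sequencing. The cells were grown as subcutaneous tumors in young adult C57BL/6 mice that received anti-PD1, an antibody to a checkpoint receptor of T cells, or an IgG isotype control. Tumor cells were enriched from the dissociated tumors with a magnetic kit that removes other cells, and polyadenylated RNA was sequenced. The 12 samples form 4 groups of 3 mice, that is, IgG and anti-PD1 for WT cells and the same treatments for A159V cells. A159V cells came from single-cell colonies, and the study states that its data are from 1 of them unless otherwise specified. Any difference that this clone carries besides the mutation cannot be told apart from the mutation in these samples.

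The distal part of mouse chromosome 4 corresponds to the tip of the short arm of human chromosome 1. It is rich in genes and holds a group of TNF receptor family genes, the peptidyl arginine deiminases, mitochondrial and chromatin regulators, and a large tandem array of KRAB zinc finger genes, DNA-binding repressors that are known for silencing mobile elements. When a cell line gains or loses a chromosome segment, the RNA of genes along the segment tends to shift together, whereas regulation of single genes need not follow their position. A joint shift of RNA alone does not tell its cause. Gene counts do not measure DNA copy number, which was not tested here.

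Libraries held 14053582 to 21949942 counts. CPM denotes counts scaled to library size with TMM factors, and 3 counts, taken as the detection floor, correspond to 0.137 to 0.213 CPM. Values of a gene are listed by replicate, in the order 1, 2 and 4 for WT IgG, 1, 2 and 3 for both anti-PD1 groups, and 1, 2 and 5 for A159V IgG. A159V IgG replicate 5 stood apart from its group. Of the genes tested, 757 were more than 1 log2 unit below both other replicates and 127 were above. WT IgG replicate 1 had 258 genes below and 148 above by the same measure. In A159V IgG replicate 5, genes with a GC content under 42% lay at a median of -0.85 from the mean of the other 2 replicates. The median of this deviation over all genes was subtracted. A value of a member for A159V over WT under IgG that is named below and changed sign or moved by more than 1.5 times without A159V IgG replicate 5 or WT IgG replicate 1 is given with and without it. Rac1 itself was measured at 451 ± 55.5 CPM in WT IgG and 419.6 ± 65.1 in A159V IgG (SD, n = 3). Since the mutation changes a codon, this count does not check the genotype.

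The 5 epithelial markers Krt8, Krt18, Krt19, Epcam and Cdh1 summed to 0.703 to 4.02 CPM over all samples, and Epcam was at 0 in A159V IgG, so the label of adenocarcinoma was not visible in these markers. Of 11 leukocyte markers, summed levels were 28.0 to 30.6 CPM in WT IgG, 41.5 to 67.8 in WT anti-PD1, 38.8 to 57.3 in A159V IgG and 41.8 to 45.2 in A159V anti-PD1. Cd68 made up most of these sums, Ms4a1 was at 0 in every sample, and Ptprc averaged 1.31, 10.2, 0.103 and 0.129 CPM in the same order. The 5 fibroblast markers summed to 293 to 734 CPM in WT samples and 169.9 to 249 in A159V samples. The 3 endothelial markers were highest in WT anti-PD1, at 12.9 to 14.6 CPM, against 4.89 to 9.79 in the other groups. In bulk samples, fewer cells of a type and less RNA per cell cannot be told apart, and the part of these cells in the values of the members was not tested.

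As a whole, the members were higher in A159V than in WT tumor cells, under IgG and under anti-PD1. Under IgG the mean of Ece1, which makes endothelin, was 3.27-fold higher in A159V, that of Ube4b, a ubiquitin ligase, 2.02-fold, and that of Dffb, an apoptotic nuclease, 1.74-fold, whereas Pdpn, Padi2 and Id3 were lower. The question was whether genes of the segment shift together across the 4 groups. For each sample, a score was taken as the median over members of log2 CPM minus the WT IgG mean of the gene. WT IgG samples scored -0.06, 0.09 and -0.02, and WT anti-PD1 samples 0.10, 0.13 and 0.08. A159V IgG samples scored 0.53, 0.50 and 0.57, and A159V anti-PD1 samples 0.49, 0.51 and 0.50. The 6 A159V samples thus lay above the 6 WT samples without overlap, a difference that the choice of members fixed. Over all genes tested, the same score stayed between -0.04 and 0.07. The members took 0.710% to 0.909% of the counts in WT samples and 1.04% to 1.26% in A159V samples.

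**Figure D1:**
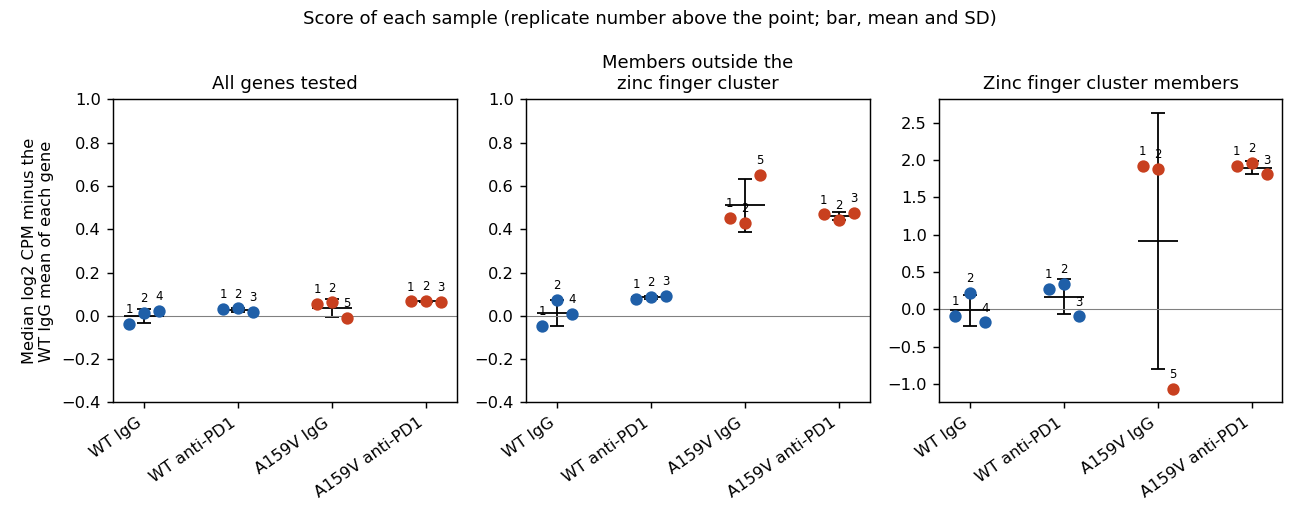
Score of each of the 12 samples, as the median log2 CPM minus the WT IgG mean of each gene, for all genes tested, for members outside the zinc finger cluster and for the cluster, with the mean and SD (n = 3) per group and the replicate number above each point. The A159V points of the middle panel lie between 0.43 and 0.65, and in the right panel A159V IgG replicate 5 lies at -1.06, below every WT sample.

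Of the 194 members, 193 passed the low-count filter. In the contrast of A159V IgG with WT IgG, their median log2 fold change was 0.53, with quartiles at 0.11 and 0.81, against a median of 0.02 over the 14340 genes tested. In total 153 members, or 79.3%, had a value above 0, against 51.2% of all genes. A call needed an adjusted p under 0.05 in the quasi-likelihood test of edgeR and a log2 fold change of more than 0.3 in size. On this rule 86 members were called higher and 8 lower, where 15.6% and 12.4% of all genes were called. In 85 members the 3 A159V IgG values lay above the 3 WT IgG values (19.8% of all genes), and in 11 they lay below (16%). Under anti-PD1 the median was 0.45 against 0.06 over all genes, with 78 members called higher and 11 lower, where 11.2% and 10.2% of all genes were called. The A159V values lay above those of WT in 118 members (32.6% of all genes) and below in 16 (23.5%). Since the window was drawn from these contrasts, nothing is read from the counts.

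The remaining member, Slc2a5, which encodes a fructose transporter, was below the filter. It had 0, 2 and 1 counts in WT IgG and 5, 0 and 3 in WT anti-PD1, whereas it had 10, 10 and 9 in A159V IgG and 13, 7 and 8 in A159V anti-PD1. Its A159V samples were therefore those that brought it over the minimum. The minimum was reached in all 12 samples by 165 members, in A159V samples only by 4 and in WT samples only by 5. A further 213 features of the window stayed below it, and 75 of them had no count in any sample.

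The size of the difference varied with the kind of gene. Among the 176 protein-coding members tested the median was 0.55 under IgG and 0.44 under anti-PD1. For the 17 non-coding members tested, the medians were -0.05 and 0.52. By expression level, members with a mean under 10 CPM had a median of 0.29 under IgG, where all genes of that level had -0.39. Members of 10 to 50 CPM had 0.51 against 0.03, and members over 50 CPM had 0.62 against 0.19. In each of the 3 classes the members lay above the other genes of their level. Exon length moved with the values as well, in opposite orders under IgG and anti-PD1. Under IgG, all genes with under 2500 bases of exon had a median of -0.26 and those over 5000 bases 0.17, with members at 0.29 and 0.61. Under anti-PD1 the medians of all genes were 0.13 and -0.02, with members at 0.52 and 0.25.

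Along chromosome 4, the higher values began shortly before the window and ran through most of it. Tested genes in the 5 Mb before the window had a median log2 fold change of 0.32 under IgG and 0.29 under anti-PD1 (n = 82). In the 5 Mb bin before those, the medians were 0.04 and 0.08 (n = 72). From the window start, the 4 bins of 5 Mb, which hold all tested genes, had medians of 0.51, 0.51, 0.58 and 0.30 under IgG, and of 0.41, 0.16, 0.57 and 0.39 under anti-PD1. The last of these bins ran to position 155899999, past the window end, and so mixes genes inside and outside the window. The 45 tested genes after the window, some of which are in that bin, had medians of 0.02 and 0.19. The other 19 chromosomes had medians between -0.21 and 0.09 under IgG and between -0.16 and 0.12 under anti-PD1. Chromosome 4 as a whole had 0.13 and 0.18. The medians of the members lay above all of these, but the window was drawn with its values known. Windows of its size on other chromosomes were not compared.

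Within the window, members were counted in steps of 2.5 Mb. The first step had a median log2 fold change of 0.33 under IgG (29 members), and the second had 0.72 (22 members). From the third step on, the medians were 0.55, 0.24, 0.55, 0.62, 0.49 and 0.52, with 27, 15, 37, 27, 21 and 15 members. Under anti-PD1 the 8 steps had medians of 0.38, 0.54, 0.33, -0.58, 0.67, 0.52, 0.33 and 0.51. The step from 7.5 to 10 Mb, with 15 members that include Dhrs3, was the lowest of the 8 in both contrasts. Without its 3 zinc finger genes its medians were 0.04 and -1.42. Among its members, Gm13040, Gm13043 and Gm13057 each averaged 1.07 CPM in WT anti-PD1 and 0.162 in A159V anti-PD1, the latter near the detection floor. All 3 had -2.66 under anti-PD1 and were among the members called lower there. Of the 100-base words of their transcripts, 99.3% to 100% also occurred in another gene, so their values may not be separate.

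**Figure D2:**
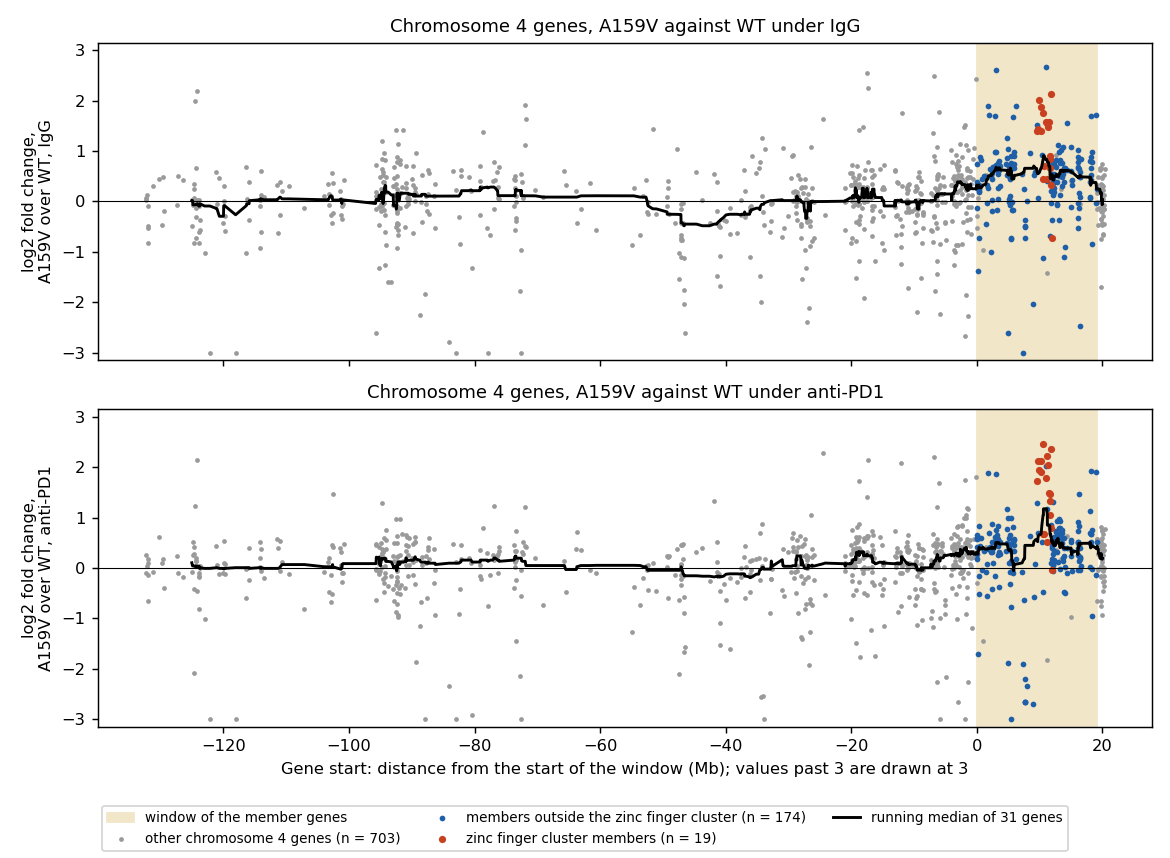
Log2 fold change of A159V over WT under IgG (top) and anti-PD1 (bottom) for each tested chromosome 4 gene, against the distance of its start from the window start in Mb, with the running median of 31 genes as a line. Shading marks the window, and the running median stays near 0 over most of the chromosome and lies above it in most of the window, where most members (blue, and red for the zinc finger cluster) are above 0.

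The genes at the 2 edges did not step from low to high. Just outside the proximal edge, Il22ra1, a subunit of the interleukin-22 receptor, had a log2 fold change of 2.44 ± 0.34 under IgG and 1.80 ± 0.33 under anti-PD1 (SE). Its neighbors Srsf10, a splicing factor, and Pnrc2, a factor of mRNA decay, had -0.29 ± 0.23 and -0.53 ± 0.23 under IgG, where A159V IgG replicate 5 was the lowest, with Srsf10 at 103 CPM against 230.1 and 223 in the other replicates. Just inside, Fuca1, a lysosomal fucosidase, had 0.28 ± 0.12 under IgG and 0.18 ± 0.12 under anti-PD1. At the distal edge, Mmel1, a membrane metalloendopeptidase, had 1.72 ± 0.49 under IgG and 1.90 ± 0.46 under anti-PD1 inside the window, whereas Tnfrsf14 had -0.02 ± 0.31 under IgG and -0.14 ± 0.31 under anti-PD1. Pank4, a pantothenate kinase family member and the last gene inside, had 0.24 ± 0.17 under IgG and 0.51 ± 0.17 under anti-PD1. Beyond it, Pex10, a peroxisome biogenesis factor, had 0.16 ± 0.20 under IgG and 0.58 ± 0.20 under anti-PD1, and Rer1, a retrieval receptor of the Golgi, had 0.32 ± 0.15 under IgG and 0.57 ± 0.15 under anti-PD1. Morn1 had -0.15 ± 0.37 under IgG and -0.66 ± 0.36 under anti-PD1. The genes of the distal edge thus did not separate into higher ones inside and lower ones outside. The IgG values were 0.17 for Fuca1, -0.16 for Tnfrsf14 and -0.04 for Pank4 without A159V IgG replicate 5, and -0.42 for Tnfrsf14 without WT IgG replicate 1. Without A159V anti-PD1 replicate 2 Pank4 had 0.33 under anti-PD1.

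The 2 genotype contrasts use different mice. Both were known when the window was drawn, so their likeness among members is a description and not a replication. Most members had the same sign in both: 136 were above 0 in both (70.5%, against 37.1% of all genes), 22 below 0 in both (11.4%, against 30.6%), and 35 differed in sign (18.1%, against 32.3%). Of the members called, 54 were called higher in both contrasts (6.14% of all genes) and 5 lower in both (5.24%), and 0 in opposite directions (0.0558%). Across members, Pearson's r of the 2 log2 fold changes was 0.62 and Spearman's coefficient 0.51 (n = 193), against 0.71 and 0.54 over all 14340 genes. These are correlations across genes that share libraries, so the genes are not independent replicates. All 6 A159V values lay above all 6 WT values in 57 members (29.5%, against 10.3% of all genes) and below them in 5 (2.59%, against 6.82%). Without A159V IgG replicate 5 the first count was 80, or 41.5% against 14.7%, and without WT IgG replicate 1 it was 70, or 36.3% against 14%.

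**Figure D3:**
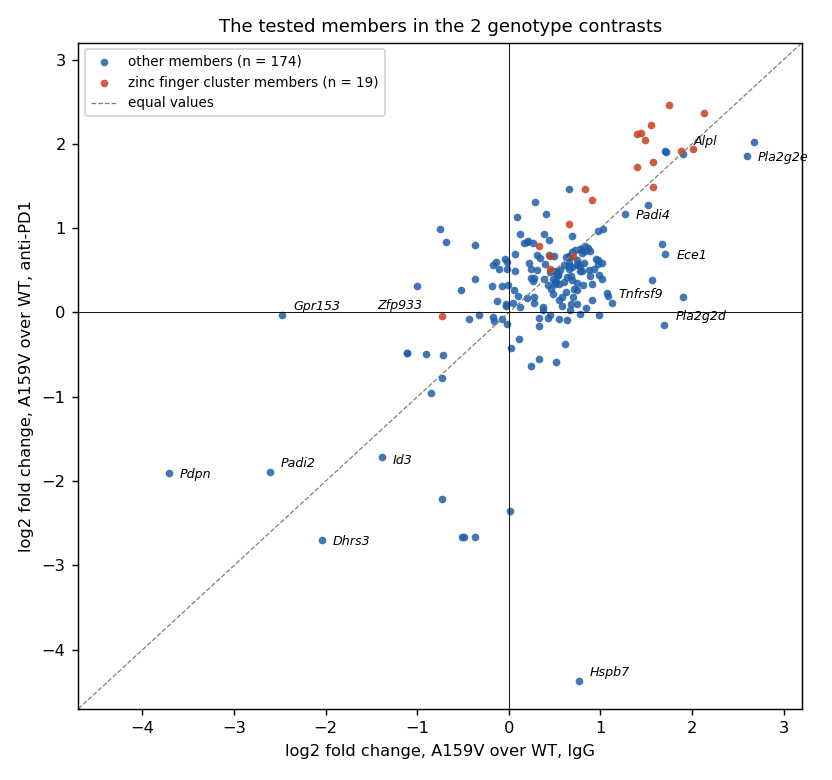
Log2 fold change of A159V over WT for each of the 193 tested members under IgG (horizontal axis) and under anti-PD1 (vertical axis), with the zinc finger cluster in red and equal values on the dashed line. The upper right quadrant holds 136 members, and the lower left quadrant 22, with Pdpn, Padi2, Dhrs3 and Id3 among them.

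Members were grouped by role in 11 lists, which together held 108 of the tested members. The lists were written with earlier results of these data known, and their counts are a description beside the shares of all genes called, given above. The text names up to 4 members of each list with the most counts, together with those of highest and lowest log2 fold change.

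**Figure D4:**
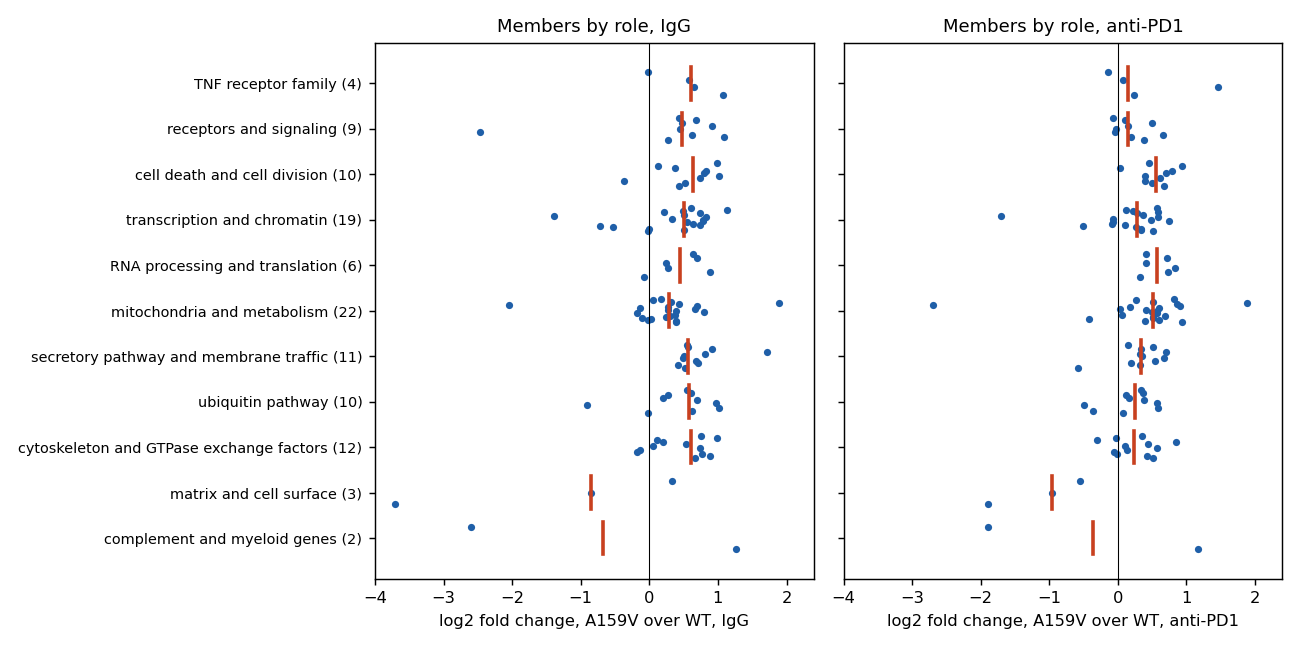
Log2 fold change of A159V over WT under IgG (left) and anti-PD1 (right) for each tested member of the 11 role lists (number of members in parentheses), with the list median as a vertical bar. Medians lie above 0 in 9 lists in both contrasts, and below 0 for matrix and cell surface genes and for complement and myeloid genes.

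Among receptors, Tnfrsf9, the costimulatory receptor 4-1BB, was measured at 13.7, 13.6 and 11.04 CPM in WT IgG, 22.5, 31.4 and 18.4 in WT anti-PD1, 26.6, 23.6 and 30.6 in A159V IgG and 22.3, 33.9 and 28.6 in A159V anti-PD1. The A159V IgG samples lay above the WT IgG samples, and the 2 anti-PD1 groups overlapped, with log2 fold changes of 1.07 ± 0.21 under IgG and 0.23 ± 0.21 under anti-PD1 (SE). Tnfrsf1b, an inducible receptor for TNF, had 0.58 ± 0.14 under IgG and 0.07 ± 0.14 under anti-PD1. The lymphocyte death receptor Tnfrsf25 was near 1 CPM or below in most samples, with 0.65 ± 0.44 under IgG and 1.46 ± 0.45 under anti-PD1. Together with Tnfrsf14, these 4 TNF receptor genes had a median of 0.61 under IgG and 0.15 under anti-PD1, with 2 and 1 called higher. The IgG values were 0.33 for Tnfrsf25 without A159V IgG replicate 5, and 0.38 for Tnfrsf1b without WT IgG replicate 1.

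The other receptor and signaling genes (n = 9) had medians of 0.48 under IgG and 0.14 under anti-PD1, with 5 called higher and 1 lower in the first contrast and 1 higher in the second. Epha2, a receptor tyrosine kinase for ephrins, was measured at 64.5, 81.7 and 65.3 CPM in WT IgG, 103, 89.2 and 74.8 in WT anti-PD1, 144, 104 and 149.5 in A159V IgG and 111, 87.2 and 96.9 in A159V anti-PD1. Under IgG its A159V values were all above those of WT, and under anti-PD1 the groups overlapped, with 0.91 ± 0.17 under IgG and 0.14 ± 0.17 under anti-PD1. Agtrap, which binds the angiotensin receptor, had 0.43 ± 0.13 under IgG and -0.06 ± 0.13 under anti-PD1, and Ctnnbip1, an inhibitor of beta-catenin, had 0.48 ± 0.16 under IgG and 0.49 ± 0.16 under anti-PD1. Pik3cd, the leukocyte PI3-kinase subunit, was the highest of the list under IgG at 1.08 ± 0.33. Rap1gap, which turns off the GTPase Rap1, had 0.27 ± 0.20 under IgG. The IgG values were 0.27 for Agtrap, 0.71 for Pik3cd and -0.07 for Rap1gap without A159V IgG replicate 5, and 0.16 for Rap1gap without WT IgG replicate 1.

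Genes of cell death and cell division (n = 10) had medians of 0.63 and 0.56, with 6 and 7 called higher. Dffb, the nuclease that cuts DNA during apoptosis, was measured at 142, 176 and 139 CPM in WT IgG, 129.7, 138 and 111 in WT anti-PD1, 241, 259.5 and 295 in A159V IgG and 213, 206 and 198 in A159V anti-PD1. Every A159V sample exceeded every WT sample, with 0.80 ± 0.14 under IgG and 0.70 ± 0.14 under anti-PD1. Rcc2, a regulator of mitotic chromosomes, was measured at 427, 431 and 407 CPM in WT IgG, 417, 395 and 346 in WT anti-PD1, 607, 549 and 664 in A159V IgG and 517, 551 and 561 in A159V anti-PD1. Here too the 6 A159V samples were above the 6 WT samples, with 0.53 ± 0.12 under IgG and 0.49 ± 0.12 under anti-PD1. Klhl21, an adaptor for cytokinesis, had 1.02 ± 0.14 under IgG and 0.40 ± 0.14 under anti-PD1. Miip, an inhibitor of cell migration, was the lowest of the list under IgG at -0.37 ± 0.18 and had 0.39 ± 0.18 under anti-PD1. Its IgG value was -0.65 without A159V IgG replicate 5.

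The transcription and chromatin list (n = 19) had medians of 0.51 and 0.27, with 8 called higher and 1 lower under IgG, and 5 higher and 1 lower under anti-PD1. Kdm1a, a histone demethylase, was measured at 119, 131 and 132 CPM in WT IgG, 148, 138 and 136 in WT anti-PD1, 234, 232 and 210.4 in A159V IgG and 203, 214 and 216 in A159V anti-PD1. Its values in A159V did not reach down to those of WT in any sample, with 0.83 ± 0.11 under IgG and 0.59 ± 0.11 under anti-PD1. Hp1bp3, a linker histone relative bound by heterochromatin protein, had 0.51 ± 0.14 under IgG and 0.37 ± 0.14 under anti-PD1. For the corepressors Rere and Spen the IgG values were 0.63 ± 0.23 and 0.74 ± 0.30, and the anti-PD1 values -0.09 ± 0.23 and 0.10 ± 0.30. Casz1, a zinc finger transcription factor, was the highest of the list at 1.13 ± 0.32 under IgG. The IgG values were 0.34 for Rere and 0.30 for Spen without A159V IgG replicate 5, and 0.32 for Rere, 0.39 for Spen and 0.30 for Hp1bp3 without WT IgG replicate 1.

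In RNA processing and translation (n = 6) the medians were 0.45 and 0.57, with 3 called higher in each contrast. Nol9, a kinase of ribosomal RNA processing, was measured at 74.3, 76.3 and 73.5 CPM in WT IgG, 85.9, 79.9 and 75.4 in WT anti-PD1, 139, 131 and 144 in A159V IgG and 135, 127 and 138 in A159V anti-PD1. Exosc10, the nuclease of the nuclear exosome, was measured at 131, 131 and 128 CPM in WT IgG, 134, 116 and 119 in WT anti-PD1, 215, 194 and 222 in A159V IgG and 193, 207 and 208 in A159V anti-PD1. Both were higher in all A159V samples than in any WT sample, with 0.88 ± 0.11 under IgG and 0.73 ± 0.10 under anti-PD1 for Nol9 and 0.69 ± 0.11 under IgG and 0.72 ± 0.11 under anti-PD1 for Exosc10. Eif4g3, a scaffold of translation initiation, had 0.64 ± 0.17 under IgG and 0.42 ± 0.17 under anti-PD1, and the splicing regulators Hnrnpr and Tardbp had 0.24 ± 0.14 and -0.08 ± 0.13 under IgG. Without WT IgG replicate 1 the IgG values were 0.40 for Eif4g3 and 0.12 for Hnrnpr, and without A159V IgG replicate 5 Tardbp had -0.05.

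Mitochondrial and metabolic genes formed the largest list (n = 22), with medians of 0.29 under IgG and 0.51 under anti-PD1. In this list 4 were called higher and 1 lower under IgG, and 12 higher and 1 lower under anti-PD1. Dnajc11, a chaperone of mitochondrial cristae, was measured at 88.9, 92.3 and 77.6 CPM in WT IgG, 77.3, 76.2 and 66.3 in WT anti-PD1, 139, 122 and 157 in A159V IgG and 138, 137 and 137 in A159V anti-PD1. All A159V values exceeded all WT values, with 0.69 ± 0.13 under IgG and 0.91 ± 0.13 under anti-PD1. Acot7, an acyl-CoA thioesterase, was measured at 185, 148 and 121 CPM in WT IgG, 104, 97.2 and 89.7 in WT anti-PD1, 172, 154 and 181 in A159V IgG and 179, 163 and 175 in A159V anti-PD1. WT IgG and A159V IgG overlapped for this gene and the anti-PD1 groups did not, with 0.16 ± 0.15 under IgG and 0.82 ± 0.15 under anti-PD1. Srm, the spermidine synthase, had 0.38 ± 0.19 under IgG and 0.93 ± 0.20 under anti-PD1, and Park7, a redox-sensitive protein, had -0.11 ± 0.17 under IgG and 0.52 ± 0.17 under anti-PD1. Alpl, alkaline phosphatase, had 1.90 ± 0.34 under IgG and 1.88 ± 0.33 under anti-PD1 at 0.445 to 1.04 CPM in WT and 2.02 to 2.84 in A159V samples. The IgG values were 0.03 for Acot7 and -0.24 for Park7 without A159V IgG replicate 5, and 0.27 for Acot7, 0.63 for Srm and 0.03 for Park7 without WT IgG replicate 1.

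Of the secretory pathway and membrane traffic list, all 11 members were above 0 under IgG and 10 under anti-PD1, with medians of 0.56 and 0.34, and 9 and 5 called higher. Ddost, a subunit of the oligosaccharyltransferase that glycosylates proteins in the endoplasmic reticulum, was measured at 259, 215 and 197 CPM in WT IgG, 233, 216 and 209 in WT anti-PD1, 342, 327 and 322 in A159V IgG and 309, 294 and 332 in A159V anti-PD1. The A159V samples were all above the WT samples, with 0.56 ± 0.13 under IgG and 0.51 ± 0.13 under anti-PD1. Ece1, the protease that makes endothelin, was measured at 11.6, 22.1 and 20.2 CPM in WT IgG, 30.2, 26.3 and 31.8 in WT anti-PD1, 53.8, 55.6 and 67.01 in A159V IgG and 46.5, 47.998 and 48.7 in A159V anti-PD1. Its log2 fold changes were the highest of the list in both contrasts, with 1.71 ± 0.20 under IgG and 0.70 ± 0.20 under anti-PD1. Plod1, a collagen lysyl hydroxylase, had 0.70 ± 0.13 under IgG and 0.19 ± 0.13 under anti-PD1, and Clstn1, a cargo adaptor of kinesin, had 0.55 ± 0.13 under IgG and 0.14 ± 0.13 under anti-PD1. Vamp3, a SNARE of recycling endosomes, was the lowest under IgG at 0.42 ± 0.17. Without WT IgG replicate 1 Clstn1 had 0.36 under IgG.

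Ubiquitin pathway genes (n = 10) had medians of 0.58 and 0.25, with 4 called higher and 1 lower under IgG, and 3 higher under anti-PD1. Ube4b, a ubiquitin chain elongation factor, was measured at 56.1, 72.9 and 80.9 CPM in WT IgG, 89.3, 86.3 and 83.6 in WT anti-PD1, 137, 144 and 143 in A159V IgG and 142, 118 and 131 in A159V anti-PD1. A159V and WT did not overlap, with 1.01 ± 0.14 under IgG and 0.59 ± 0.14 under anti-PD1. Fbxo42, a substrate adaptor, had 0.61 ± 0.15 under IgG and 0.37 ± 0.15 under anti-PD1. Ubr4, a large ubiquitin ligase, was measured at 155, 328 and 417 CPM in WT IgG, 537, 519 and 494 in WT anti-PD1, 276, 327 and 775 in A159V IgG and 569, 330.3 and 303 in A159V anti-PD1. Its samples spread widely within groups, and its log2 fold change was 0.62 ± 0.40 under IgG. The deubiquitinase Usp48 had -0.03 ± 0.21, and Spsb1, an adaptor that limits inducible nitric oxide synthase, was the lowest at -0.90 ± 0.27. The IgG values were -0.07 for Ubr4 and -0.35 for Usp48 without A159V IgG replicate 5, and 0.26 for Ubr4 and -0.26 for Usp48 without WT IgG replicate 1. Without WT IgG replicate 4 Spsb1 had -0.58.

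In the list of cytoskeletal genes and GTPase exchange factors (n = 12) the medians were 0.60 and 0.24, with 7 and 4 called higher. Capzb, which caps actin filaments, was measured at 186, 160.1 and 131 CPM in WT IgG, 161, 155 and 160.02 in WT anti-PD1, 238, 221 and 233 in A159V IgG and 221, 211 and 214 in A159V anti-PD1. Efhd2, a calcium-binding actin regulator, was measured at 83.1, 72.5 and 100.3 CPM in WT IgG, 78.3, 71.4 and 82.2 in WT anti-PD1, 137, 138 and 152 in A159V IgG and 108, 104 and 131 in A159V anti-PD1. Both had 6 A159V values above the 6 WT values, with 0.54 ± 0.13 under IgG and 0.44 ± 0.13 under anti-PD1 for Capzb and 0.74 ± 0.14 under IgG and 0.57 ± 0.14 under anti-PD1 for Efhd2. The kinesin Kif1b and the actin-binding Luzp1 had 0.77 ± 0.25 and 0.89 ± 0.19 under IgG, and -0.02 ± 0.24 and 0.43 ± 0.19 under anti-PD1. Arhgef16, a GTPase exchange factor, was the highest under IgG at 0.99 ± 0.33 and had -0.03 ± 0.33 under anti-PD1, whereas Fblim1, a filamin-binding adhesion protein, was the lowest at -0.18 ± 0.21. Without WT IgG replicate 1 the IgG values were 0.42 for Kif1b and -0.37 for Fblim1, and without A159V IgG replicate 5 Fblim1 had -0.34.

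The peptidyl arginine deiminases, enzymes that turn arginine into citrulline, did not move as one: of 4 members, Padi2 was lower in A159V and the others had values above 0. Padi4, the form known from neutrophils, was measured at 82.3, 101 and 77.2 CPM in WT IgG, 99.4, 86.8 and 84.02 in WT anti-PD1, 195, 202 and 228 in A159V IgG and 194, 199 and 214 in A159V anti-PD1. Padi2 was measured at 11.5, 4.47 and 20.5 CPM in WT IgG, 7.87, 7.37 and 11.5 in WT anti-PD1, 1.43, 2.02 and 2.55 in A159V IgG and 2.997, 1.81 and 2.39 in A159V anti-PD1. All A159V samples exceeded all WT samples for Padi4, with 1.26 ± 0.13 under IgG and 1.17 ± 0.13 under anti-PD1, and all lay below them for Padi2, with -2.61 ± 0.45 under IgG and -1.89 ± 0.45 under anti-PD1. Of the 7 genes listed as complement and myeloid, only these 2 were members. Padi3 had 0.87 ± 0.28 under IgG and 0.77 ± 0.28 under anti-PD1 and Padi1 1.03 ± 0.42 under IgG and 0.99 ± 0.40 under anti-PD1, which were added after their values were seen.

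The 5 highest members under IgG were Gm21411, Pla2g2e, Zfp534, Zfp986 and Kazn. Pla2g2e, a secreted phospholipase, was measured at 2.02, 3.43 and 2.16 CPM in WT IgG, 4.14, 3.75 and 4.399 in WT anti-PD1, 16.4, 13.7 and 15.7 in A159V IgG and 13.4, 15.4 and 15.9 in A159V anti-PD1. The A159V samples were all well above the WT samples, with 2.60 ± 0.20 under IgG and 1.86 ± 0.20 under anti-PD1. Gm21411 had 2.68 ± 0.40 under IgG and 2.02 ± 0.37 under anti-PD1, and Kazn, a protein of the cornified envelope, had 1.90 ± 0.58 under IgG and 0.18 ± 0.55 under anti-PD1. Gm21411 shared 35.3% of its 100-base words with other genes, so its reads could have been split between copies.

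The 5 lowest members were Pdpn, Padi2, Gpr153, Dhrs3 and Id3. Pdpn, podoplanin, a mucin-like protein of the cell surface, was measured at 7.704, 3.73 and 2.91 CPM in WT IgG, 3.88, 6.302 and 4.01 in WT anti-PD1, 0.476, 0.384 and 0.213 in A159V IgG and 1.58, 0.372 and 1.84 in A159V anti-PD1. Id3, an inhibitor of basic helix-loop-helix factors, was measured at 46.8, 38.5 and 19.6 CPM in WT IgG, 33.96, 41.6 and 62.4 in WT anti-PD1, 11.5, 13.1 and 15.6 in A159V IgG and 12.1, 13.1 and 16.97 in A159V anti-PD1. Dhrs3, which reduces retinaldehyde, was measured at 2.404, 1.65 and 2.96 CPM in WT IgG, 2.48, 2.75 and 3.29 in WT anti-PD1, 0.529, 0.432 and 0.744 in A159V IgG and 0.109, 0.957 and 0.223 in A159V anti-PD1. For all 3 genes each A159V sample was below each WT sample. The log2 fold changes were -3.71 ± 0.57 under IgG and -1.90 ± 0.49 under anti-PD1 for Pdpn, -1.39 ± 0.30 under IgG and -1.71 ± 0.30 under anti-PD1 for Id3 and -2.04 ± 0.51 under IgG and -2.69 ± 0.52 under anti-PD1 for Dhrs3. Gpr153, an orphan receptor, was near the detection floor in several samples, with -2.47 ± 0.83 under IgG and -0.04 ± 0.71 under anti-PD1. Megf6, a protein with EGF-like repeats, had -0.85 ± 0.27 under IgG and -0.96 ± 0.27 under anti-PD1. Hspg2, the basement membrane proteoglycan perlecan and the member with the most counts, was measured at 238, 354 and 664 CPM in WT IgG, 660.5, 619.6 and 742 in WT anti-PD1, 319.5, 411 and 848 in A159V IgG and 608, 402 and 371 in A159V anti-PD1. Its groups overlapped, and its log2 fold change of 0.33 ± 0.38 under IgG became -0.27 without A159V IgG replicate 5 and -0.0021 without WT IgG replicate 1. Of the 5 fibroblast markers, Col1a1, Pdgfrb, Dcn and Lum had lower means in A159V IgG than in WT IgG and Pdgfra a higher one. Col1a1 averaged 142 CPM in WT IgG and 17.8 in A159V IgG, and Dcn 245 and 96.4. Their part in these values was not tested.

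A run of 19 zinc finger genes at chr4:145510759-147848366 (mm10), with Zfp534, Zfp600, Rex2, Zfp933 and members of the Zfp978 to Zfp993 series, stood out within the window. It was picked by gene symbol among protein-coding members, after its values were seen, and is described without a test. Other members that lie between these genes were not counted in it. Their log2 fold changes under IgG ran from -1.11 (Gm26880) to 2.68 (Gm21411). KRAB zinc finger proteins recruit corepressors to DNA, and tandem arrays of them arise by repeated duplication. The median log2 fold change of the run was 1.40 under IgG and 1.73 under anti-PD1, and 18 of 19 genes were above 0 in each contrast. The 322 other tested genes with Zfp symbols had medians of -0.25 and -0.14. Zfp933, at the distal end of the run, was the exception, with -0.73 ± 0.26 under IgG and -0.04 ± 0.26 under anti-PD1.

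By sample, the run was higher in A159V than in WT except in A159V IgG replicate 5. Zfp600 was measured at 31.6, 29.9 and 20.2 CPM in WT IgG, 25.8, 29.5 and 19.5 in WT anti-PD1, 99.9, 100.03 and 14.7 in A159V IgG and 103, 119 and 102 in A159V anti-PD1. Rex2 was measured at 23.5, 24.9 and 16.1 CPM in WT IgG, 22.7, 26.7 and 15.4 in WT anti-PD1, 88.5, 91.1 and 9.67 in A159V IgG and 95.3, 111 and 96.5 in A159V anti-PD1. Zfp979, with the most counts of the run, was measured at 50.3, 54.3 and 39.5 CPM in WT IgG, 49.1, 50.02 and 41.3 in WT anti-PD1, 124, 124 and 22.7 in A159V IgG and 125, 112 and 117 in A159V anti-PD1. In 5 A159V samples these genes were above all WT samples, whereas in A159V IgG replicate 5 they were below them. The median score of the run was -0.09, 0.22 and -0.18 in WT IgG and 0.27, 0.34 and -0.10 in WT anti-PD1. It was 1.92, 1.88 and -1.06 in A159V IgG and 1.93, 1.96 and 1.81 in A159V anti-PD1. Zfp978 alone had all 6 A159V samples above all WT samples, and without A159V IgG replicate 5 this held for 18 of 19, with a median of 1.82 under IgG. The run has a median GC content of 36.1% in its longest transcripts, against 53.8% in the other members and 49.7% in all genes tested. A159V IgG replicate 5 was low for genes of low GC throughout the genome. By the deviation described above, genes under 42% GC lay at -0.85 in this sample and the genes of the run at -2.67. The part of GC content in the low values of the run was not tested. With trends of log2 CPM on exon length and GC content removed from each sample, the medians of the run were 1.44 under IgG and 1.64 under anti-PD1.

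**Figure D5:**
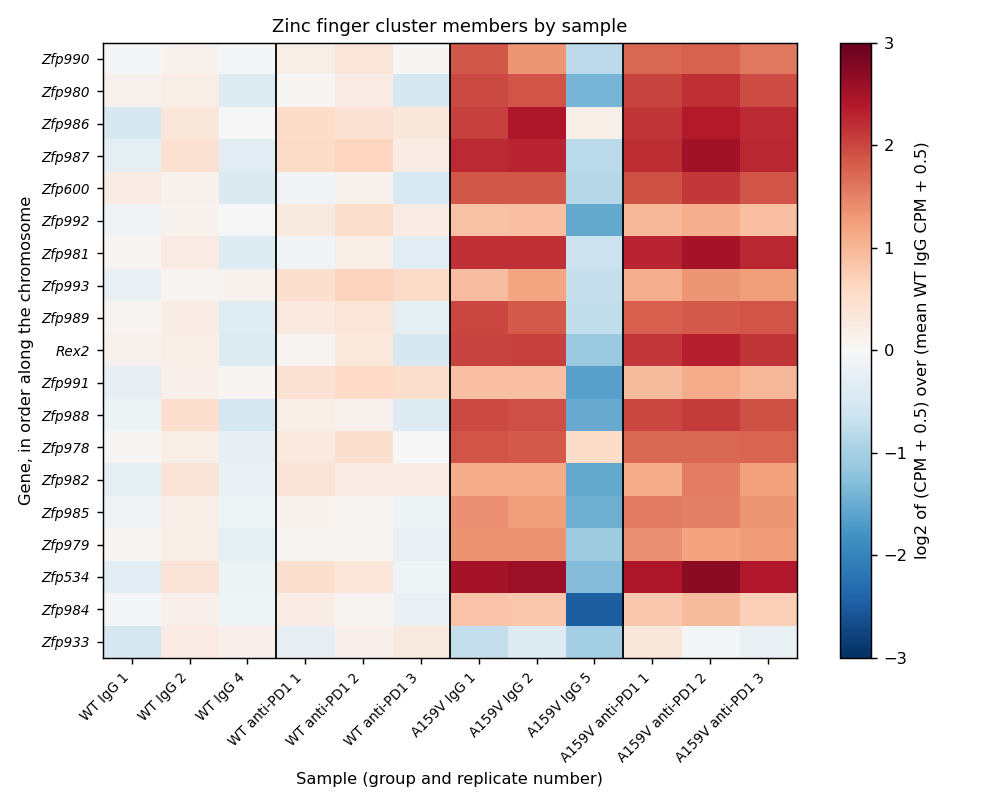
The 19 zinc finger genes in order along the chromosome (vertical) in each of the 12 samples (horizontal), colored by log2 of CPM plus 0.5 over the WT IgG mean plus 0.5. A159V IgG replicates 1 and 2 and the 3 A159V anti-PD1 samples are red for all genes but Zfp933, whereas A159V IgG replicate 5 is blue for most of them.

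Outside the run, the members were also higher in A159V. The 174 other tested members had a median of 0.50 under IgG and 0.40 under anti-PD1. Their sample scores were -0.04, 0.07 and 0.01 in WT IgG, 0.08, 0.09 and 0.09 in WT anti-PD1, 0.45, 0.43 and 0.65 in A159V IgG and 0.47, 0.44 and 0.48 in A159V anti-PD1. A159V IgG replicate 5 was the highest of these samples. Without it the IgG median was 0.35, and without WT IgG replicate 1 it was 0.39. With trends of log2 CPM on exon length and GC content removed from each sample, the medians were 0.42 under IgG and 0.32 under anti-PD1.

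Reads of the zinc finger genes are shared between copies to an unknown extent, since the counting mode is not given in the sources used here. Of the 100-base words of their transcripts, a median of 42.5% (0 to 75.3%) also occurred in another gene, whereas the median of the other members was 0. Over 10% of words were shared in 28 members, 13 of them outside the run, and the exons of 44 members overlapped those of another gene. Counts of single genes among these are uncertain.

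Promoter sequences show how alike the copies are. The 4 genes of the run with the most counts are printed beside the members nearest the edges of the window, Fuca1 and Pank4, and the member with the most counts, Hspg2. The sequences are those of RefSeq on GRCm38.p6, from 250 bases before to 50 after the gene start, and capitals mark GGGCGG and CCAAT on either strand.
Zfp979 (chr4:147642459-147642758, minus strand): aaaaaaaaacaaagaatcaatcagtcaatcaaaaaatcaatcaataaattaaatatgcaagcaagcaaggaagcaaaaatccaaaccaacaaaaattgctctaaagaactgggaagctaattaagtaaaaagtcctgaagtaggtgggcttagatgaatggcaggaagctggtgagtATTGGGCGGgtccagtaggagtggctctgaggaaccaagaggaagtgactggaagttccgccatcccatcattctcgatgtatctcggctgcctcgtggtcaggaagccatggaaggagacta
Zfp600 (chr4:146156577-146156876, plus strand): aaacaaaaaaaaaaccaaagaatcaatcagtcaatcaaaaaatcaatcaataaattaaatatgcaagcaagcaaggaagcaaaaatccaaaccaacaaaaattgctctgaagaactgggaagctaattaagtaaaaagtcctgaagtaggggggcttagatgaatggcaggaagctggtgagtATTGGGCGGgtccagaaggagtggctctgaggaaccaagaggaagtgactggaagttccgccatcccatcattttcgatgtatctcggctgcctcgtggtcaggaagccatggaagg
Zfp984 (chr4:147809739-147810038, minus strand): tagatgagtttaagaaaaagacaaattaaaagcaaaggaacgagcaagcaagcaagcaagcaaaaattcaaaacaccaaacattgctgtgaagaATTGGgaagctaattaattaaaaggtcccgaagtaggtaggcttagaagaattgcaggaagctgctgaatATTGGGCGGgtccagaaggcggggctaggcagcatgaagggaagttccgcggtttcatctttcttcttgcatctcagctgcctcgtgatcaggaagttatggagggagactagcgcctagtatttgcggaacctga
Zfp985 (chr4:147553027-147553326, plus strand): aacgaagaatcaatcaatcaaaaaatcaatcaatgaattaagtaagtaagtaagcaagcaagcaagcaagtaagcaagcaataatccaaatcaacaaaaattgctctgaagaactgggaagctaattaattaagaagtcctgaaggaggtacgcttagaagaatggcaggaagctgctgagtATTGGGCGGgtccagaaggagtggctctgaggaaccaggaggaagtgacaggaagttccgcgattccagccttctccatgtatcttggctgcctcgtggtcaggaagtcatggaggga
Fuca1 (chr4:135920476-135920775, plus strand): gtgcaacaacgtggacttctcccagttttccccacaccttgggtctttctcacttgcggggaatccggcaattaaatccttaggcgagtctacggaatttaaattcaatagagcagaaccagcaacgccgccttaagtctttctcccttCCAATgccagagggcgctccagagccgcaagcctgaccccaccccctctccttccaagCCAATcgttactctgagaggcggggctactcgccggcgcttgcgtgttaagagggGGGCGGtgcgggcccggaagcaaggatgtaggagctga
Pank4 (chr4:154963873-154964172, plus strand): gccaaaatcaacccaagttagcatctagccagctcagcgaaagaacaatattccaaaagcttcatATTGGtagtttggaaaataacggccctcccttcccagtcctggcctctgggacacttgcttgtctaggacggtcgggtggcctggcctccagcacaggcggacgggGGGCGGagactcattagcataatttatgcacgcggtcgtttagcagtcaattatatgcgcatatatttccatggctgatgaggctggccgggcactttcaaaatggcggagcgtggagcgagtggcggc
Hspg2 (chr4:137468553-137468852, plus strand): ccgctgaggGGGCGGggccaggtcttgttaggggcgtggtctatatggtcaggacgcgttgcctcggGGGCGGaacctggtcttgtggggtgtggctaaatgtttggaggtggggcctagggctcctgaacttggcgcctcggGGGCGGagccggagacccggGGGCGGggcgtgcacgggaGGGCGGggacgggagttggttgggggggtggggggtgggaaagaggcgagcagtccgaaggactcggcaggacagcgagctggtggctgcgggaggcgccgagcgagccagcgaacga

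In the 4 zinc finger promoters the 2 motifs overlap as ATTGGGCGG, the complement of CCAAT joined to GGGCGG. RefSeq promoters were matched by symbol for 151 members, 13 of them in the run. ATTGGGCGG was found, on either strand, in 9 of the 13 promoters of the run, in 1 of the 138 other members (0.725%) and in 0.278% of 27025 promoters. GGGCGG alone was in 69.2% of the promoters of the run, 68.1% of the other members and 35.9% of all promoters. CCAAT was in 84.6%, 34.1% and 37.9%, and TATAAA in 0 of 13, 7.97% and 14.2%. The printed zinc finger promoters were 64.2% to 94.4% identical in pairs, and those of Zfp600 and Rex2 99.3%. The 3 other printed promoters were 41.2% to 44.6% identical. A match is a description of letters and not a site.

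The response to anti-PD1 was not itself used to draw the window, and was tested. It shares samples with the genotype contrasts that chose the members, so it is not independent of that choice. In WT cells the members had a median log2 fold change of 0.08 under anti-PD1 relative to IgG, against 0.01 over all genes. Of the members, 1 was called, Pla2g2d, a secreted phospholipase, where 0.628% of all genes were called. It was measured at 0.219, 0.306 and 0.251 CPM in WT IgG, 0.8799, 0.805 and 1.39 in WT anti-PD1, 0.635, 1.06 and 0.8503 in A159V IgG and 0.872, 0.904 and 1.001 in A159V anti-PD1. The WT anti-PD1 values were above the WT IgG values, with a log2 fold change of 1.97 ± 0.39 (SE, adjusted p = 0.041 by edgeR's quasi-likelihood test). In A159V the same gene had 0.12 ± 0.33 (adjusted p = 1). It was measured at or below 1.39 CPM in every sample, so each value rests on few counts. The WT anti-PD1 values lay above the WT IgG values in 39 members (18.8% of all genes) and below in 20 (15.8%). At an unadjusted p under 0.05 there were 44 members, or 22.8%, against 27.5% of all genes. Among them Tnfrsf9 had 0.91 ± 0.21 (adjusted p = 0.059), Acot7 -0.64 ± 0.15 (adjusted p = 0.059), and Pramef8, of a gene family expressed in germ cells, 0.70 ± 0.15 (adjusted p = 0.054). The count of calls depended on the libraries, at 33 without WT IgG replicate 4 (23.6% of all genes) and 0 without each of the other WT samples.

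Exon length moved with this contrast. Members with over 5000 bases of exon had a median of 0.23 and those under 2500 bases -0.08, and for all genes the values were 0.22 and -0.28. Across genes, Pearson's r of the log2 fold change with log2 exon length was 0.21 for the members (n = 193) and 0.35 for all genes with a length (n = 14216), a description over genes that share libraries. The part of exon length in the calls was not tested. By role, the mitochondrial and metabolic members had a median of -0.24, with 6 of 22 above 0, and the secretory pathway members 0.19, with 8 of 11 above 0. At an unadjusted p under 0.05 there were 9 and 4 of them (40.9% and 36.4%, against 27.5% of all genes). These are 2 of the 11 lists. Other lists lay on both sides of 0, with medians of 0.43 for the TNF receptor family, 0.22 for transcription and chromatin, and -0.12 for cell death and cell division. Pla2g2d stayed the only member called by edgeR.

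In A159V cells no member was called for anti-PD1 against IgG (0 of 193 by edgeR and 0 by DESeq2), and 9 had an unadjusted p under 0.05 (3.63% of all genes). No gene of the whole table was called by edgeR in this contrast (0%). The groups did not overlap in 10 members that were higher (4.51% of all genes) and 15 that were lower (6.5%) under anti-PD1. The smallest p-values belonged to Pdpn, with 1.79 ± 0.61, Zfp933, with 0.77 ± 0.26, and Dffb, with -0.37 ± 0.14 (adjusted p = 1 for each by edgeR). The median over members was -0.04, against 0.005 over all genes. The zinc finger run had a median of 0.58, which became 0.13 without A159V IgG replicate 5.

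The difference between the 2 anti-PD1 responses, tested as an interaction of genotype and treatment, was called by edgeR for 0 members and by DESeq2 for 2, where 0.00697% and 2.06% of all genes were called. This interaction equals the difference between the 2 genotype contrasts that chose the members, so it is not independent of that choice either. At an unadjusted p under 0.05 there were 41 members, or 21.2%, against 17.6% of all genes. The smallest p-values were those of Pramef8, Ece1 and Pla2g2d. Pramef8 was measured at 18.2, 19.6 and 20.5 CPM in WT IgG, 30.7, 28.2 and 35.9 in WT anti-PD1, 20.3, 27.8 and 21.04 in A159V IgG and 20.4, 18.98 and 21.5 in A159V anti-PD1. Its interaction was -0.88 ± 0.21 (adjusted p = 0.148 by edgeR), with WT anti-PD1 as the highest group. Ece1 had -1.01 ± 0.28 (adjusted p = 0.175 by edgeR) and Pla2g2d -1.85 ± 0.51 (adjusted p = 0.176 by edgeR). Without WT IgG replicate 4 edgeR called 12 members (8.07% of all genes).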

How the data were processed

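Bulk RNA-seq of tumor cells isolated from MC38 tumors was analyzed in 12 samples. As the methods state, the authors aligned paired reads to mm10 with STAR and counted them per gene with summarizeOverlaps, and they deposited raw counts, without normalization, in 1 table. Counting mode, strand setting and annotation are not given in the sources used here. Groups were taken from the labels. Of 33217 Ensembl identifiers, 31980 matched GENCODE M21, which gave positions. Counts were tested with edgeR 4.0.16 in R 4.3.3. The filterByExpr function kept 14340 genes, and libraries were scaled by TMM. One mean per group was fitted with the quasi-likelihood method, using every sample (8 residual degrees of freedom), and Benjamini-Hochberg adjustment covered the 14340 genes. Calls required an adjusted p under 0.05 together with a log2 fold change of more than 0.3 in either direction. SE values are those of the log2 fold change, n = 3 mice per group. They were computed as its size divided by the square root of the F statistic of the quasi-likelihood test. They thus rest on the spread estimated over all 12 samples and are not the spread within a group. Log2 CPM for scores used a prior count of 2.

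Total counts of 14053582 to 21949942 limit genes of low counts most, and detection floors cover counting error only. The members, the role lists and the zinc finger run were chosen with earlier results of these data known. Genes were named by rule: in each role list up to 4 members with the largest mean CPM and those of highest and lowest log2 fold change under IgG, 3 genes on each side of both edges, members called in the anti-PD1 contrasts or, where none was called, the 3 with the smallest p, and the 5 highest and 5 lowest members. Some genes that this rule names are not reported here. Alternatives were DESeq2 1.42.0, other scalings and filters, other sets of samples or members, a replicate block, and removal of each sample's trends of log2 CPM with exon length and GC content, which was added after seeing the data. The tests were checked on simulated counts. Promoters were read from RefSeq tables, and figures were drawn with matplotlib 3.10.9 in Python 3.11.15.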

Additional observations from a re-analysis of the deposited data

How the results depend on the processing

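The median log2 fold change of the members minus that of all genes was 0.51 under IgG and 0.38 under anti-PD1, and it kept its sign under every alternative run, between 0.46 and 0.58 under IgG and between 0.33 and 0.48 under anti-PD1. Without a filter on low counts it was 0.58 and 0.48. Leaving out 1 sample at a time gave 0.47 to 0.56 under IgG and 0.38 to 0.44 under anti-PD1. Members called numbered 94 under IgG (28% of all genes called) and 89 under anti-PD1 (21.4%). A fit of only the 2 groups compared called 39 under IgG (10.3% of all genes). At least 10 counts in every sample left 57 calls under anti-PD1 (16.6%). With a sample left out, the calls were 71 (19.9% of all genes) to 93 (32%) under IgG. Under anti-PD1 they were 44 (10.4%) to 62 (14.7%).

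The anti-PD1 contrasts were the least stable. In WT, 1 member was called, against 12 without a filter (3.25% of all genes called), 22 with DESeq2 (10.3%) and 13 with length and GC trends removed (4.7%), a setting chosen after seeing the data. With at least 10 counts in every sample, or with only the groups compared, 0 were called. Leaving out 1 sample gave 0 to 33 calls in this contrast, the 33 beside 23.6% of all genes, and a median difference of 0.0386 to 0.12. The interaction had 0 calls, 2 with DESeq2 (2.06% of all genes) and 0 to 12 with a sample left out, the 12 without WT IgG replicate 4 (8.07%). In A159V the median difference of -0.04 became 0.0073 with trends removed and lay between -0.0762 and 0.0352 with a sample left out. The cause of these differences was not tested.

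Replicate numbers belong to different mice, and deviations of same-numbered samples from their group means correlated between -0.18 and 0.20 over 13 pairs, so the numbers were not taken to pair the samples. With a replicate block, 108 members were called under IgG (97 higher and 11 lower), or 56%, against 40.9% of all genes. For anti-PD1 in WT 45 were called (23.3%, against 32.4% of all genes), and for the interaction 25 (13%, against 19.2%). The median difference was 0.46 under IgG and 0.0365 for anti-PD1 in A159V.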
